A study of Mus musculus with 6 samples.

Results

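Lin7a, Lrrc4c, Homer1 and Ncam1 encode scaffold and adhesion proteins best known from synapses. Their alternative splicing was followed in primary mouse medullary thymic epithelial cells (mTECs), and every listed event of the 4 genes was taken. Each of the 6 libraries listed 6 such events, 2 of Lin7a, 2 of Lrrc4c, 1 of Homer1 and 1 of Ncam1, among 4658 events of 2685 genes that could be matched across all libraries. The genes were chosen because some of their events had already been seen to differ between the groups. Their inclusion values and differences are therefore descriptions, and no test of them is offered as evidence.

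The libraries formed 3 groups of 2. In the Raver2 knockdown group, each library carried a different short hairpin RNA (sh1 or sh2) against Raver2, which binds RNA and works with the splicing repressor PTB. In the Setd2 knockdown group, each carried a different hairpin against Setd2, a histone methyltransferase of transcribed genes, and the control group (Ctr) carried a hairpin against bacterial LacZ in both libraries. All groups shared the rest of the treatment: CD45- EpCAM+ Ly51- I-A/E+ thymic cells were placed on a fibrin gel holding human dermal fibroblasts, infected with a lentivirus that also expressed eGFP, and sorted 5 days later as DAPI- I-A/E+ GFP+ cells. The labels give no strain, age or number of animals, and do not state separate cultures for the 2 libraries of a group. The spread within a group can therefore be technical in Ctr, whereas in the knockdown groups it also holds any difference between the hairpins.

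Each splicing event was measured by its inclusion frequency, deposited as a fraction from 0 to 1 that stands for the share of transcripts including the alternative segment. Read depth behind each fraction is unknown, so no counting interval is given. A row of the tables carries a gene symbol and no coordinates, so the exon involved is unknown, and event numbers follow the row order of the gene. Inclusion carries no expression level. The extent of the knockdowns was not measurable, and a change of splicing within cells cannot be told apart from a change in the mix of cells, or in the RNA per cell. Events were listed for 2 of 10 thymic epithelial marker genes (Aire and Cd74), 1 of 10 fibroblast markers, 4 of 10 leukocyte markers and 6 of 10 neuronal and glial markers. The levels of these markers are not given by the fractions, and their part in the results was not tested.

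At a synapse, adhesion molecules on the facing membranes hold the cells together, and scaffold proteins behind the membrane tie receptors and channels to the adhesion sites. Many of these genes are rich in alternative exons, and PTB family proteins are known repressors of neuronal exons. mTECs are known to transcribe many genes of other tissues, neural ones included, as part of the display of self-antigens to developing T cells. Lin7a is a small scaffold protein with an L27 domain, which binds CASK-type scaffolds, and a PDZ domain; it also serves cell polarity in epithelia. Homer1 links glutamate receptors, calcium release channels and Shank proteins, and its short form Homer1a lacks the coiled coil through which the long forms multimerise. Lrrc4c, also called NGL-1, is a postsynaptic leucine-rich repeat protein that binds netrin-G1. Ncam1 is the neural cell adhesion molecule, an immunoglobulin-domain protein made in several lengths by splicing.

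The annotation of the 4 genes shows which alternatives could underlie the events (GENCODE M21 on mm10, the build named in the submitters' processing notes). Lin7a lies on chromosome 10 at chr10:107271686-107421474 on the plus strand, with 3 transcripts. Lrrc4c lies at chr2:96318169-97631666 on the plus strand, with 4 transcripts. Homer1 lies at chr13:93299635-93405129 on the plus strand, with 12 transcripts, and Ncam1 at chr9:49502136-49798925 on the minus strand, with 7 transcripts. An exon was counted as skipped where one transcript holds it inside and another splices past it. By that count Lin7a had 2 such exons, Lrrc4c 2, Homer1 8 and Ncam1 6. Alternative first and last exons, of which Homer1 and Ncam1 have several, come on top of these.

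Of the wholly coding exons that can be left out with both neighbouring splice sites kept, the 3 shortest are printed to show what kind of segment differs between annotated forms of these proteins. Capitals mark the exon and lower case marks 15 bases of the exon on either side, all read 5′ to 3′ on the gene's strand.
Lin7a exon, chr10:107323911-107324029: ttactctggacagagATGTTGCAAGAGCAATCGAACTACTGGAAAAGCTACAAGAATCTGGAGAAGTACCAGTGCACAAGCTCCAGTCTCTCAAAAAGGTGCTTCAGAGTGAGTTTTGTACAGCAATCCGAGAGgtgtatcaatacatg
Homer1 exon, chr13:93386345-93386380: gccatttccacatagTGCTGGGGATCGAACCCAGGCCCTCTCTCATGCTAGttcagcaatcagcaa
Ncam1 exon, chr9:49550540-49550569: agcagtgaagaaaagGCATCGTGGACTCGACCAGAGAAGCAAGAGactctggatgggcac

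The Lin7a exon has 119 bases, which is not a multiple of 3. It is the second of 6 exons in the transcript with 699 coding bases. The other 2 Lin7a transcripts leave it out, hold a 77-base exon at chr10:107380227-107380303 that the first one lacks, and have 333 coding bases. The Homer1 exon has 36 bases and adds 12 codons in frame. The Ncam1 exon has 30 bases and adds 10 codons; it is the VASE exon, which falls within an immunoglobulin domain. A second simple cassette of Ncam1, 801 bases long at chr9:49506853-49507653, adds 267 codons to the tail inside the cell. In Lrrc4c the coding sequence of every annotated transcript lies in 1 exon. Its 2 skipped exons, of 216 and 52 bases (chr2:97231537-97231752 and chr2:97603489-97603540), hold no annotated coding sequence and lie upstream of it. None of the deposited events is assigned to any of these exons here.

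**Figure D1:**
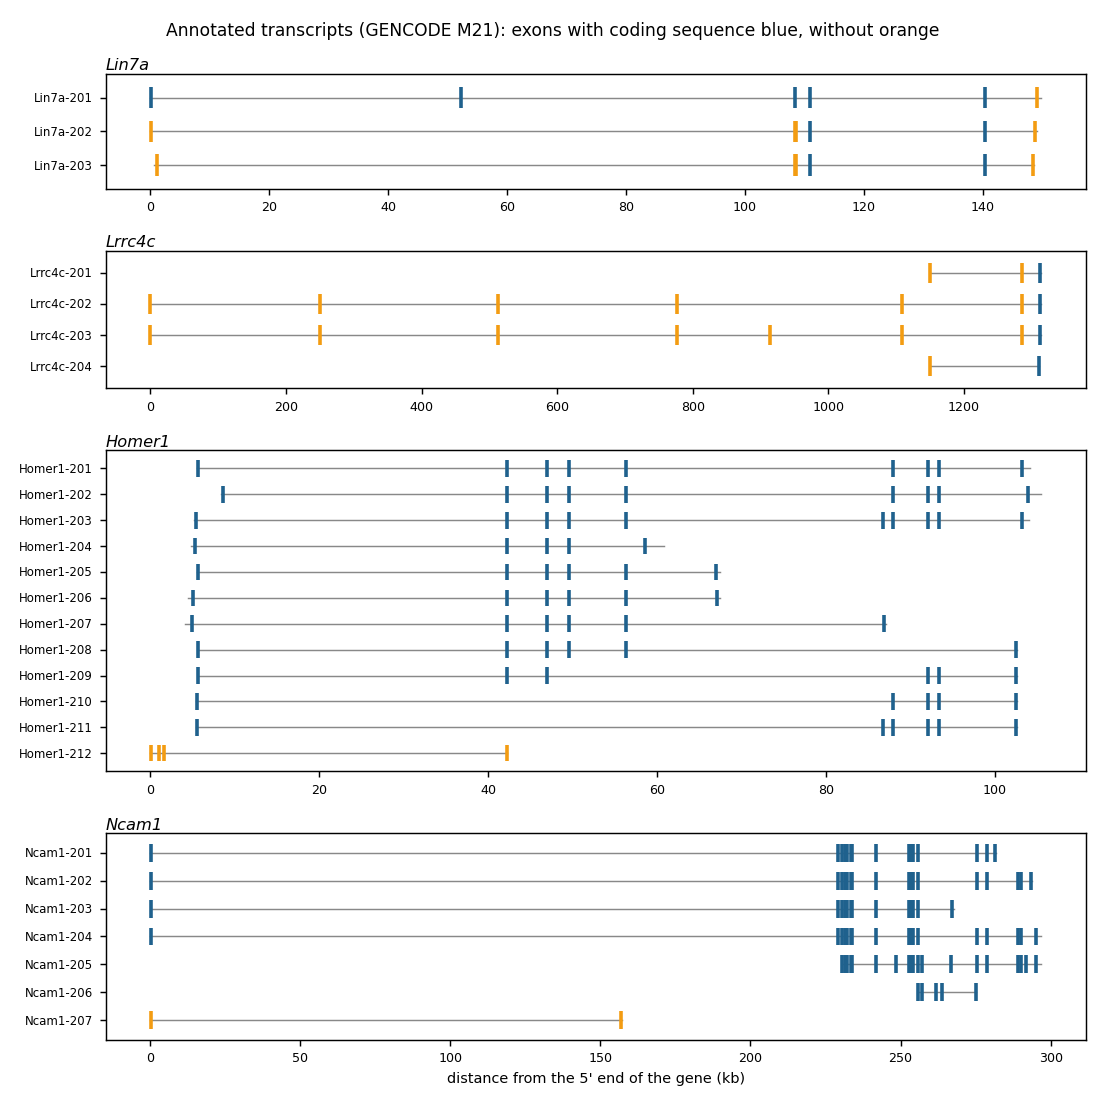
Annotated transcripts of the 4 genes, one line each, drawn to scale against the distance in kb from the 5′ end of the gene; bars are exons, blue with coding sequence and orange without, and bar widths are not to scale. Lrrc4c has a single coding exon at its 3′ end, while Homer1 has 12 transcripts with several ends.

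With events matched by row order, Lin7a, the smallest scaffold of the 4, lay at opposite ends of the scale in the knockdown and Ctr libraries. Inclusion of Lin7a event 1 was 0.998 and 0.998 under Raver2 knockdown (sh1 and sh2), 0.998 and 0.995 with Setd2 hairpins, and 0.04396 and 0.0271 in Ctr. All 4 knockdown libraries were high and both Ctr libraries low, with no overlap. The difference was 0.963 ± 0.0207 for Raver2 knockdown minus Ctr and 0.961 ± 0.0207 for Setd2 knockdown minus Ctr (SE from limma over all events, n = 2 per group). Between the knockdowns it was 0.00176 ± 0.0207 for Raver2 minus Setd2, less than its error. This SE also draws on other events, and it was larger than the SD within any group (at most 0.0119, in Ctr).

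Lin7a event 2 went the other way. Its inclusion was 0.00196 and 0.00201 under Raver2 knockdown, 0.00219 and 0.00515 with Setd2 hairpins, and above 0.9999 in both Ctr libraries. The differences were -0.998 ± 0.0392 and -0.996 ± 0.0392 (SE) for Raver2 and Setd2 knockdown minus Ctr. This SE also draws on other events and overstates the spread between the libraries of event 2. Their SD was 3.55e-05 under Raver2 knockdown, 0.0021 under Setd2 knockdown and 1.62e-06 in Ctr. The 2 Lin7a events were complements in the knockdown libraries, where their sum differed from 1 by at most 0.000158. In Ctr they summed to 1.044 and 1.027, above 1 in both libraries. Of 524 genes with 2 events, 51 had sums within 0.01 of 1 in all 6 libraries. Lin7a was among 3 whose sums were within 0.01 of 1 in all 4 knockdown libraries and in neither Ctr library. The differences of both Lin7a events rest on the row order being the same in every library. With the 2 Lin7a rows in the opposite order, the Ctr values would lie close to those of the knockdown libraries. As the rows carry no coordinates, their order could not be checked.

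Homer1, the other scaffold, had its single event near 0 in 4 libraries. Inclusion was 0.127 and 0.103 under Raver2 knockdown, 3.62e-06 and 5.89e-06 with Setd2 hairpins, and 1.63e-05 and 2.77e-05 in Ctr. Only the 2 Raver2 libraries were above 0.01, and they did not overlap either other group. The mean was 0.115 ± 0.0173 under Raver2 knockdown (SD, n = 2). The difference was 0.115 ± 0.00904 (SE) both for Raver2 minus Ctr and for Raver2 minus Setd2 knockdown. This SE draws on all 3 groups, and the SD was 1.61e-06 in the Setd2 and 8.06e-06 in the Ctr libraries. It therefore understates the spread between the Raver2 hairpins. The 2 Raver2 hairpins differed from each other by 0.0244, the widest gap within a group among the 6 events. For Setd2 knockdown minus Ctr the difference was -1.73e-05 ± 0.00904.

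Lrrc4c, a ligand-binding adhesion protein of the postsynaptic membrane, repeated the course of Lin7a event 2. Inclusion of Lrrc4c event 2 was 0.00116 and 0.00127 under Raver2 knockdown, 0.000698 and 0.00376 with Setd2 hairpins, and above 0.999 in both Ctr libraries. The groups did not overlap, and the difference was -0.998 ± 0.0391 for Raver2 and -0.997 ± 0.0391 for Setd2 knockdown minus Ctr (SE). As for Lin7a, this SE was larger than the SD within any group (at most 0.00216, under Setd2 knockdown). Event 1 of the same gene was below 0.0001 in all 6 libraries. The pair thus summed to under 0.01 in each knockdown library and to over 0.999 in each Ctr library, unlike the pair of Lin7a.

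Ncam1, a homophilic adhesion molecule, had its single event near 0 in all but the Setd2 libraries. Inclusion was 2.15e-06 and 1.15e-06 under Raver2 knockdown, 0.102 and 0.0939 with Setd2 hairpins, and 8.34e-07 and 9.61e-07 in Ctr. The 2 Setd2 libraries stood above the other 4 with no overlap. The mean was 0.09796 ± 0.00574 under Setd2 knockdown (SD, n = 2). The difference was 0.09796 ± 0.00321 (SE) for Setd2 knockdown minus Ctr and -0.09796 ± 0.00321 for Raver2 minus Setd2 knockdown. As for Homer1, this SE also draws on the groups near 0, and it understates the spread between the Setd2 hairpins. Homer1 and Ncam1 thus showed a low but measurable inclusion in the 2 libraries of a single target each, Homer1 with Raver2 hairpins and Ncam1 with Setd2 hairpins.

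**Figure D2:**
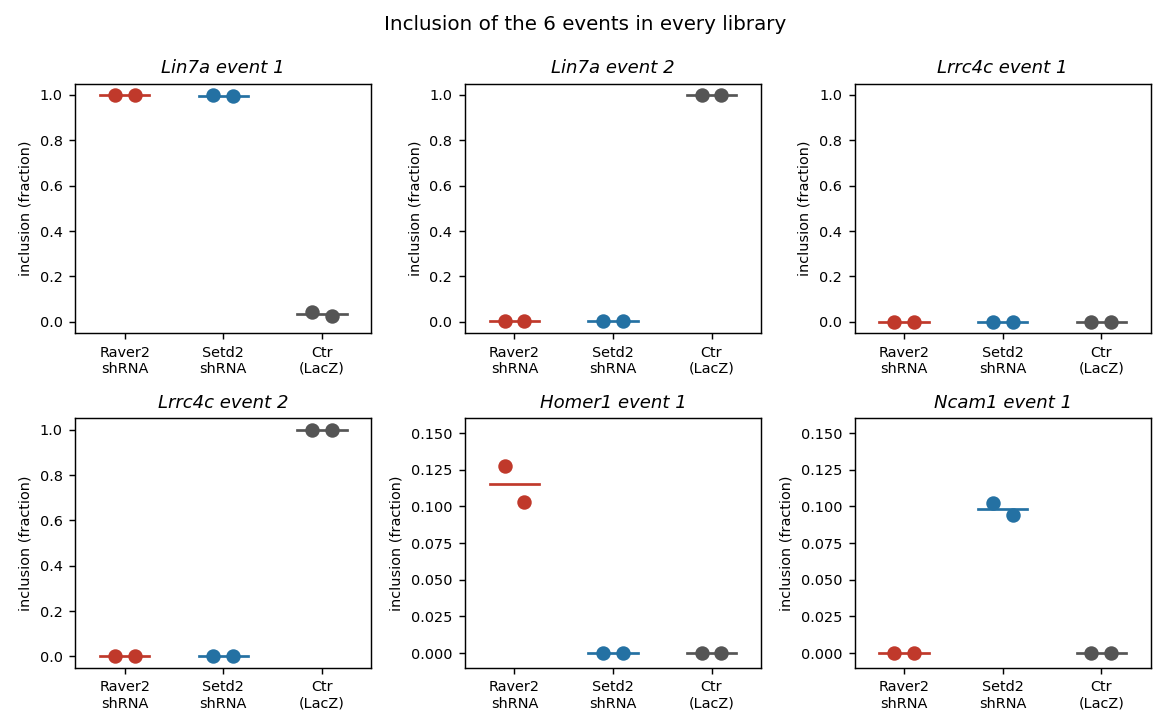
Inclusion (fraction, vertical axis) of each event in the Raver2 shRNA, Setd2 shRNA and Ctr libraries; points are libraries, short lines are group means, and the vertical axis ends at 0.16 for Homer1 and Ncam1. Lin7a event 1 is high and Lin7a event 2 and Lrrc4c event 2 are low in all 4 knockdown libraries, while Homer1 is above 0.1 in the 2 Raver2 libraries and Ncam1 above 0.09 in the 2 Setd2 libraries, with the other 4 libraries near 0 for each.

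A limma model over all 4658 events called 4 of the 6 events for Raver2 knockdown against Ctr (2 of Lin7a, Lrrc4c event 2 and Homer1) at an adjusted p under 0.05, where 2.43% of all events were called. For Setd2 knockdown against Ctr it also called 4 of 6 (2 of Lin7a, Lrrc4c event 2 and Ncam1), where 2.23% of all events were called. For Raver2 against Setd2 knockdown it called 2 of 6 (Homer1 and Ncam1), where 0.73% of all events were called. Since the genes were chosen from these same comparisons, nothing is read from the counts. Both comparisons with Ctr use the same 2 Ctr libraries. Libraries of the 2 groups did not overlap for 6 of 6 events under Raver2 knockdown against Ctr (44.0% of all events), 5 of 6 under Setd2 knockdown against Ctr (42.5%) and 4 of 6 between the knockdowns (33.8%). These counts include events that lay near 0 in both groups. For Raver2 knockdown minus Ctr these were Ncam1 (difference 7.52e-07) and Lrrc4c event 1 (-5.85e-06). For Setd2 knockdown minus Ctr it was Homer1 (-1.73e-05).

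The calls of these chosen events varied with the libraries in the fit, and this too is only described. Homer1 was no longer called for Raver2 knockdown against Ctr without Ctr library 1 (limma adjusted p = 0.0781), without Ctr library 2 (adjusted p = 0.0763), without Setd2 library sh1 (adjusted p = 0.0933) or without Setd2 library sh2 (adjusted p = 0.0994), with its difference at 0.115 in each. For Raver2 against Setd2 knockdown, the Homer1 call was lost without the same libraries in turn (limma adjusted p = 0.154, 0.157, 0.170 and 0.134). With only the 4 libraries of Setd2 knockdown and Ctr in the fit, none of the 4 calls was made (limma adjusted p = 0.0593 for each), and 0 of all events were called, although 554 of the 4658 had an unadjusted p under 0.05 in that fit.

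The 6 events shared features that the choice of genes did not name, though it may have favoured them. All 6 had at least 1 library below 0.01 or above 0.99, as did 57.1% of all events. All 6 also had a gap under 0.05 between the libraries of a group in each of the 3 groups, as did 34.6% of all events. Inclusion above 0.99 in both Ctr libraries and below 0.01 in all 4 knockdown libraries was found in 7 events of the whole table. These were Lin7a event 2, Lrrc4c event 2 and events of Dlg5, Gucy2c, Sphk1, Atp6v1c2 and A730056A06Rik. The low inclusion of Homer1, from 0.05 to 0.2 in both Raver2 libraries and below 0.01 in the other 4, was shared by 2 events of Cd247, a signalling chain of the T cell receptor. The mirror course of Ncam1, from 0.05 to 0.2 in both Setd2 libraries and below 0.01 in the other 4, was shared by Egr3, an early growth response transcription factor, and Rbak, a zinc finger repressor.

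Likeness was also measured as the mean absolute difference in inclusion over the 6 libraries, for the 5 events whose inclusion spanned at least 0.05. Nearest to Lin7a event 1 were Slc10a7 event 5 (0.0132), Kng2 event 1 (0.0137) and Pak3 event 4 (0.0147), and no event of another gene lay within 0.01. Lin7a event 2 and Lrrc4c event 2 lay 0.000851 apart, and each had A730056A06Rik event 1 as its closest event (0.000682 from Lin7a and 0.000449 from Lrrc4c). Nearest to Homer1 was Cadm1 event 3 (0.0176), an event of a synaptic adhesion gene. Its inclusion was 0.202 and 0.0721 under Raver2 knockdown, and below 0.001 in the other 4 libraries. Nearest to Ncam1 was Egr3 event 1 (0.00227), with 0.116 and 0.0939 under Setd2 knockdown and below 0.0001 in the other 4. Near 0 the measure separates little: 764 events lay within 0.05 of Homer1 and 793 within 0.05 of Ncam1, against 8 for Lin7a event 1.

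**Figure D3:**
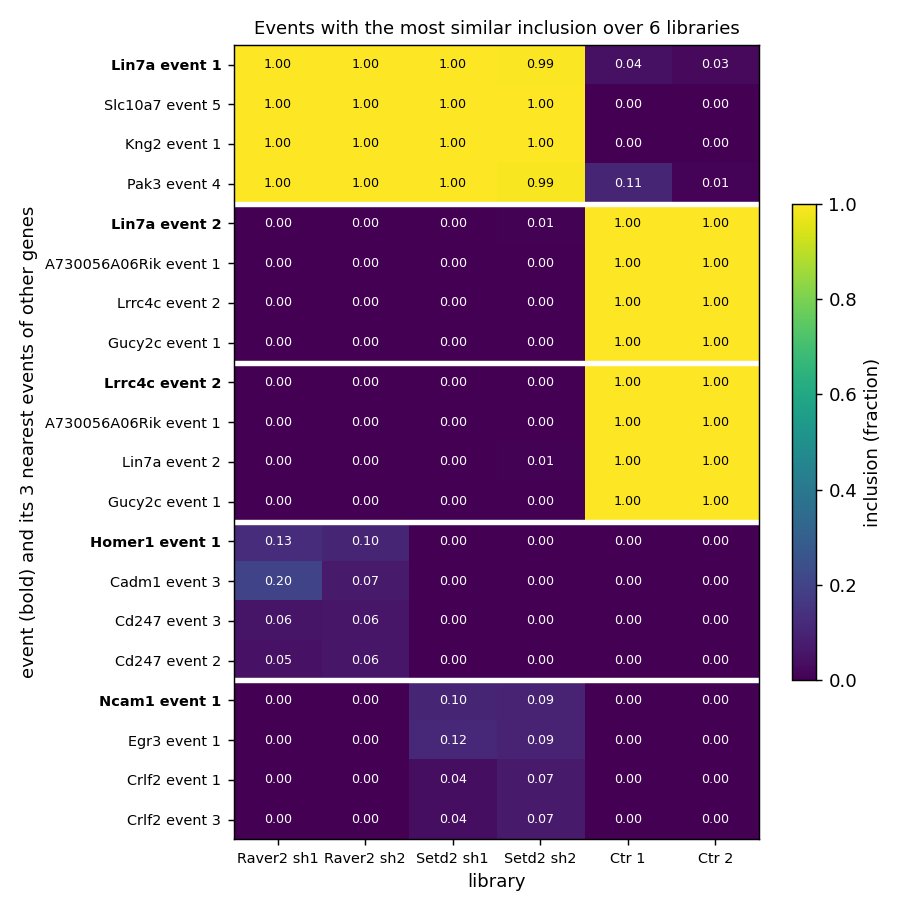
Inclusion (fraction, colour and printed number) in each library for the 5 events in bold and, under each, the 3 events of other genes with the smallest mean absolute difference over the 6 libraries. The Lin7a and Lrrc4c rows split the 4 knockdown libraries from Ctr, and the Homer1 and Ncam1 rows lie above 0.09 in the 2 libraries of a single target.

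Related genes came from 3 textbook lists of synaptic scaffolds, neural adhesion molecules and partners of the 4 proteins, which together held 180 gene symbols besides the 4 genes, with older and newer symbols of some genes both listed. Of these, 47 had matched events, 90 in all. For Raver2 knockdown against Ctr, 4 of the 90 events passed the test, 1 higher and 3 lower (4.44%, against 2.43% of all events). For Setd2 knockdown against Ctr, 3 passed, 1 higher and 2 lower (3.33%, against 2.23%), and for Raver2 against Setd2 knockdown 0 did (limma; 3 had an unadjusted p under 0.05). The median absolute difference over the 90 events was 0.0367 for Raver2 knockdown minus Ctr, against 0.0423 over all events, and 0.0271 against 0.0412 for Setd2 knockdown minus Ctr.

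Among the scaffolds, with 54 events in 26 genes, Dlg5 and Homer2 passed. Dlg5, a membrane-associated guanylate kinase of epithelial polarity and adhesion, had an inclusion of 0.00646 and 0.00727 under Raver2 knockdown, 0.00580 and 0.00893 with Setd2 hairpins, and above 0.9999 in both Ctr libraries. It fell in both knockdowns (limma, adjusted p = 0.00520 for Raver2 and 0.00583 for Setd2 against Ctr). Dlg5 thus joined Lin7a event 2 and Lrrc4c event 2 in moving across the whole scale. Homer2, a paralog of Homer1, had 0.241 and below 0.0001 under Raver2 knockdown, above 0.9999 in both Setd2 libraries, and 0.999 and 0.967 in Ctr. It fell under Raver2 knockdown against Ctr (difference -0.863 ± 0.0906, SE; limma, adjusted p = 0.0428), while Raver2 minus Setd2 knockdown was -0.880 ± 0.0906 and missed the threshold (limma, adjusted p = 0.0934). The Raver2 libraries did not overlap Ctr for Homer1, which lay above Ctr, or Homer2, which lay below. The same lack of overlap held for 44.0% of all events. Setd2 libraries did not overlap Ctr for these genes either, with differences of -1.73e-05 for Homer1 and 0.0167 for Homer2. Nothing is read from the pair.

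Further scaffold events did not pass in either comparison with Ctr. Cask event 3 belongs to a scaffold that binds the L27 domain of Lin7 proteins. It averaged 0.914 ± 0.120 under Raver2 knockdown, above 0.999 under Setd2 knockdown and 0.467 ± 0.0902 in Ctr (SD, n = 2 each; limma, adjusted p = 0.146 and 0.0965 against Ctr). Other Cask events went the other way. Cask event 1 was 0.9998 and 0.00337 in the Raver2 libraries, below 0.001 in both Setd2 libraries, and above 0.999 and at 0.963 in Ctr. Cask event 4 averaged 0.883 under Raver2 knockdown, 0.672 under Setd2 knockdown and 0.989 in Ctr. Cask event 2 was below 0.0001 in every library. Ank3 event 4, of the ankyrin that anchors sodium channels and neural adhesion molecules, averaged 0.152, 0.0187 and above 0.999 in Raver2, Setd2 and Ctr libraries (limma, adjusted p = 0.0856 and 0.0648). Its 2 Raver2 libraries lay apart, at 0.00151 and 0.302 (SD 0.212). Ank3 event 5 was above 0.999 in Setd2 library sh2, against 0.438 and 0.308 in Ctr. The values of Cask and Ank3, genes with several events, also rest on the row order, which could not be checked. Dlg1 event 1, Magi1 event 6, Ppfia1 event 1 and Git2 event 1 were the next by size of the test statistic with 1 event taken per gene, with limma adjusted p-values of 0.194 to 0.699.

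Among the neural adhesion genes, with 28 events in 14 genes, the only events to pass were 2 of Nfasc, a member of the L1 family that gathers channels at nodes of Ranvier. Nfasc event 2 rose to 0.984 and 0.9997 under Raver2 knockdown and to 0.9998 and 0.950 under Setd2 knockdown, against 0.443 and 0.290 in Ctr (limma, adjusted p = 0.0349 and 0.0400). Nfasc event 3 fell to below 0.0001 in all 4 knockdown libraries, against 0.421 and 0.551 in Ctr (adjusted p = 0.0372 and 0.0409). Cadm1 event 3, Tenm3 event 2, Cadm2 event 1, Ntng1 event 1, Mdga2 event 1 and Nrxn3 event 2 followed by size of the test statistic, again with 1 event taken per gene, and did not pass. Ntng1 encodes netrin-G1, the binding partner of Lrrc4c; its event 1 averaged 0.0181 under Raver2 knockdown, 0.0240 under Setd2 knockdown and 0.00725 in Ctr (limma, adjusted p = 0.753 and 0.699).

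Of the partners, with 8 events in 7 genes, 0 passed in any comparison (limma; 0 had an unadjusted p under 0.05). Fyn, a kinase that acts downstream of Ncam1, averaged 0.988 ± 0.00268 under Raver2 knockdown, 0.980 ± 0.0131 under Setd2 knockdown and above 0.999 in Ctr (SD, n = 2 each; limma, adjusted p = 0.712 and 0.463). Grm5, a glutamate receptor gene whose product binds Homer proteins, stayed below 0.01 in every library. Prnp, Itpr2 and Gfra1 event 2 had limma adjusted p-values of 0.537 or more against Ctr.

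The list calls also moved with single libraries. Dlg5 passed without each library in turn in both comparisons with Ctr. Homer2 no longer passed without Ctr library 1, Ctr library 2, Setd2 library sh1 or Setd2 library sh2 (limma adjusted p = 0.140, 0.127, 0.138 and 0.141). Nfasc events 2 and 3 passed without either Ctr library and failed without any 1 of the 4 knockdown libraries, with limma adjusted p-values of 0.119 to 0.165.

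**Figure D4:**
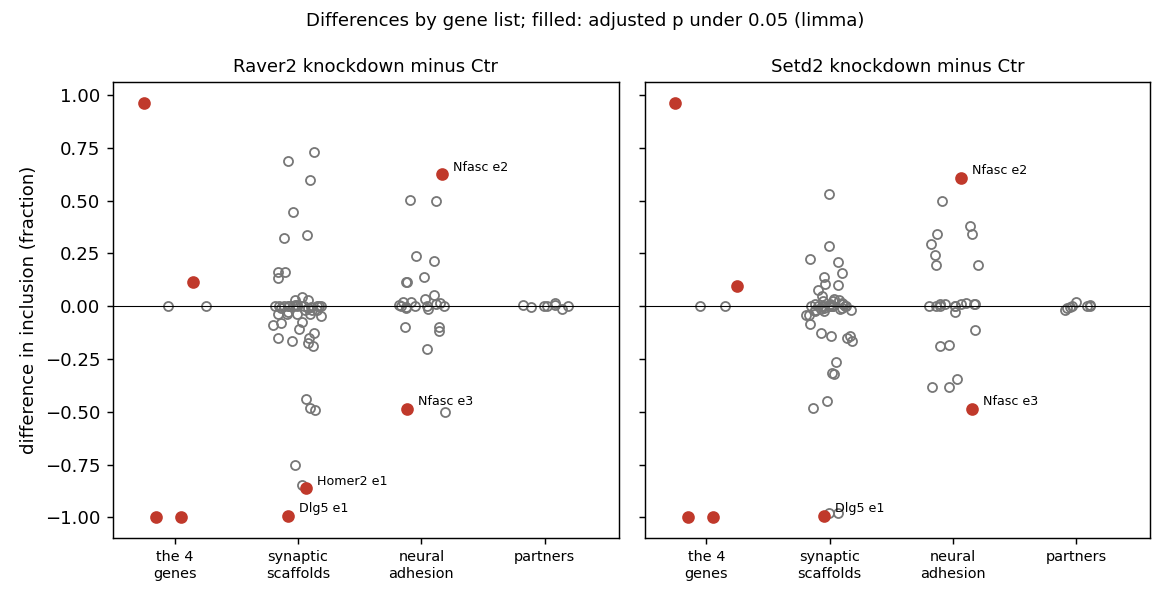
Difference in inclusion (fraction) for Raver2 knockdown minus Ctr (left) and Setd2 knockdown minus Ctr (right), one point per event, for the 4 genes and the 3 lists of related genes; filled points had a limma adjusted p under 0.05, and sideways scatter carries no value. Dlg5 sits near -1 in both panels beside Lin7a event 2 and Lrrc4c event 2, and the partners lie close to 0.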

How the data were processed

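Inclusion frequencies were deposited by the authors as a fraction from 0 to 1 per event, one table per library. The submitters' processing notes name Trimmomatic 0.39, TopHat2, Cufflinks and build mm10, without role or order; for the inclusion formula and any coverage filter, nothing was given in the sources used here. Per the labels' protocols, RNA went through a SMART-seq kit for ultra-low input and Nextera tagmentation, and fractions from few molecules tend towards 0 or 1.

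Events were matched by gene and row order, for genes with equal numbers of events in all 6 libraries (2685 of 2898). limma 3.58.1 in R 4.3.3 was run on the fractions of all 6 libraries with group means (3 residual degrees of freedom), a variance trend, two-sided contrasts and Benjamini-Hochberg adjustment over 4658 events at 0.05, and was tested on simulated data. Counts and neighbours were computed in pandas 2.3.3 under Python 3.11.15, with numpy 2.4.6.

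The genes, lists and tests were chosen with earlier results of these data known. Named were all events of the 4 genes, every list event called in a comparison, up to 6 further genes per list by absolute moderated t in either knockdown against Ctr, and the 3 nearest events of each member spanning at least 0.05, of which the text names some. Some named items are not reported here. Genes sharing an end-of-scale pattern with a member were named after their values were seen. Alternatives were other scales, variance models, library sets and event filters. Gene models came from GENCODE M21.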

Additional observations from a re-analysis of the deposited data

Results flagged for a closer look

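Homer1 and Ncam1 are listed here because their libraries separated the 2 knockdowns. Both genes were chosen with that separation known, so the values are a description and no test of them is offered as evidence. Homer1 event 1 had a difference of 0.115 for Raver2 minus Setd2 knockdown, with both Raver2 libraries above both Setd2 libraries. Ncam1 event 1 had a difference of -0.098 for Raver2 minus Setd2 knockdown, with both Setd2 libraries above both Raver2 libraries.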

How the results depend on the processing

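The 10 called differences of the 6 events kept their sign in all 122 of their alternative fits. Their libraries did not overlap between the groups compared, so these settings could not have reversed a sign. Nothing is read from that count. Of the differences not called, those of Lrrc4c event 1 (-4.64e-10) and event 2 (-0.00101) for Raver2 minus Setd2 knockdown turned to 7.14e-12 and 0.000517 without Setd2 library sh2. Of the 6 events, 4 were called for Raver2 knockdown against Ctr, 3 to 4 when a library was left out, and 3 with only the 4 libraries compared, where Homer1 was lost (limma, adjusted p = 0.0941). For Setd2 knockdown against Ctr 4 were called, 4 when any library was left out, and 0 with only the 4 libraries compared (limma; 4 had an unadjusted p under 0.05). Between the knockdowns 2 were called, 1 to 2 when a library was left out, and 1 without the variance trend, with the robust prior or with only the 4 libraries compared; the call that was lost was that of Homer1 each time. With the hairpin number as a replicate block over the 4 knockdown libraries 0 were called (limma; Homer1 adjusted p = 0.562, Ncam1 adjusted p = 0.504; both had an unadjusted p under 0.05), and 0 of all events. The numbers name unrelated hairpins, and same-numbered libraries did not deviate together (Pearson r = 0.0146 across 4658 events, which are not independent). No paired fit with Ctr was run, as its labels carry no hairpin number. None of the 6 events was among the 2000 mid-range events (0.01 to 0.99 in every library), so that setting gave no value for them.

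For the 90 list events, the 4 calls of Raver2 knockdown against Ctr became 2 on the arcsine and 2 on the log2 odds scale, 1 with only the 4 libraries compared and 0 among the 15 list events of mid-range (limma; 0 had an unadjusted p under 0.05), with 1 to 7 when a library was left out (7 without either Ctr library, 1 without either Setd2 library). The 3 calls of Setd2 knockdown against Ctr became 1 without the variance trend, 0 with only the 4 libraries compared (9 had an unadjusted p under 0.05) and 0 among the same 15 (0 unadjusted), with 1 to 7 when a library was left out (the same libraries gave the 7 and the 1). Between the knockdowns the 0 calls became 0 to 3 when a library was left out (3 without either Raver2 library). For Raver2 knockdown against Ctr, the calls lost on both scales were Homer2 (limma adjusted p = 0.108 arcsine, 0.197 log2 odds) and Nfasc event 2 (0.0598 and 0.134). The Homer2 call was also lost without the variance trend (limma adjusted p = 0.0509) and with only the 4 libraries compared (0.140). The cause of these moves was not tested. Read depth limits every fraction and is unknown.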

Other observations

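In events of related genes, libraries of 1 group also lay far apart. Nrxn3 event 2, of a presynaptic neurexin, was above 0.999 in both Raver2 libraries, above 0.999 and at 0.686 in the Setd2 libraries, and 0.00141 and above 0.999 in the Ctr libraries, so that the Ctr libraries lay at opposite ends of the scale. Mdga2 event 1, of a glycoprotein that restrains neuroligins, was 0.0900 and 0.109 in the Raver2 libraries, 0.0763 and 0.498 in the Setd2 libraries, and 0.0681 and 0.0218 in the Ctr libraries, with 1 Setd2 library above the other 5.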
